A study of Mus musculus with 7 samples.

Results

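Endoderm differentiated in culture from mouse ES cells was compared with the undifferentiated ES cells it came from, on 1 expression array each of the 7 in the series. The ES cells were SK7, a male mouse line that carries a green fluorescent protein reporter driven by the Pdx1 promoter, so both samples held this transgene. The labels give the strain of all 7 samples as ICR, and the endoderm was obtained with a published differentiation protocol whose culture days, growth factors and sorting step are not given in the sources used here. On the remaining 5 arrays were ectoderm and paraxial mesoderm derived from SK7, and adult brain, liver and skeletal muscle, which served only as context. Each gene was read from 1 probe set, a group of short probes for 1 transcript, annotated to that gene alone. Values are linear signals that the authors scaled to the same average on every array. A signal under 50 was taken as background, and a dimmer signal under 50 was raised to 50 before a ratio was formed, so that the ratio is then given as "at least". Of 18194 measured genes, 1582 differed by 2-fold or more, which is 8.7% of all genes: 889 (4.89%) were higher in endoderm and 693 (3.81%) were lower. With 1 array a side there is no measure of the spread between cultures, no test was possible, and every value below describes these 2 samples.

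Definitive endoderm is the germ layer that gives rise to the lining of the gut and to liver, pancreas and lung. In the embryo it arises from the epiblast at the anterior primitive streak, where a high level of Nodal signalling, a branch of the transforming growth factor β (TGF-β) family, switches on Eomes and Mixl1, and then Sox17, Foxa2 and the Gata factors. A second endoderm, the visceral endoderm outside the embryo proper, shares many of these factors, and is told apart by secreted serum proteins such as Afp and Ttr. ES cells hold the opposing state through Pou5f1 (Oct4), Sox2 and Nanog, together with the naive factors Klf2, Klf4, Esrrb and Zfp42.

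The promoters of 5 genes at the centre of the comparison are shown with short sequences of known factors that stand near their starts; 3 of the genes were higher in endoderm (Cer1, Foxa1, Cyp26a1) and 2 lower (Nanog, Zfp42). Each is 300 bases long, 250 before and 50 after the start site, from RefSeq on GRCm38.p6, written 5′ to 3′ on the strand of the gene. In capitals are matches on either strand to TGTTTGC or TGTTTAC, forkhead sequences of the kind bound by Foxa factors (Cer1, Foxa1), to AGTTCA, the core of a retinoic acid receptor site (Cyp26a1), to ACAATG, a Sox sequence (Nanog), and to ATGCAAAT, the octamer bound by Oct4 (Zfp42). The Cer1 promoter lies at chr4:82885102-82885401 on the minus strand, that of Foxa1 at chr12:57546062-57546361 on the minus strand, that of Cyp26a1 at chr19:37697558-37697857 on the plus strand, that of Nanog at chr6:122707239-122707538 on the plus strand, and that of Zfp42 at chr8:43306960-43307259 on the minus strand.
Cer1: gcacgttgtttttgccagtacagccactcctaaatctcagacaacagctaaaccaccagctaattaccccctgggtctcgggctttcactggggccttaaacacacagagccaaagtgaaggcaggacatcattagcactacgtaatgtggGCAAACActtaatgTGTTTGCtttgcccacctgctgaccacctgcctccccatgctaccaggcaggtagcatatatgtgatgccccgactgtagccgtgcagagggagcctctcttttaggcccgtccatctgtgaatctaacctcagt
Foxa1: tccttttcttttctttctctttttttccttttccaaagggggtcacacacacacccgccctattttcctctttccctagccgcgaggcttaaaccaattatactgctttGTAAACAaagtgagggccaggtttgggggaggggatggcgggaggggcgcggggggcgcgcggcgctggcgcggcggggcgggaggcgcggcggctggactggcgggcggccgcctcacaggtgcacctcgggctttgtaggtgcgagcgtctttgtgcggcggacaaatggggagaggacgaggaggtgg
Cyp26a1: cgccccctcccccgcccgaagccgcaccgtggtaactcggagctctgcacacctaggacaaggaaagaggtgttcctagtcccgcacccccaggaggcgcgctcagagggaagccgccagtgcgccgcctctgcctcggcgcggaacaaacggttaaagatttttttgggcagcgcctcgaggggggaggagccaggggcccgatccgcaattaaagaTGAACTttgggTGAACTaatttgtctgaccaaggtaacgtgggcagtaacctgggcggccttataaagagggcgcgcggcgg
Nanog: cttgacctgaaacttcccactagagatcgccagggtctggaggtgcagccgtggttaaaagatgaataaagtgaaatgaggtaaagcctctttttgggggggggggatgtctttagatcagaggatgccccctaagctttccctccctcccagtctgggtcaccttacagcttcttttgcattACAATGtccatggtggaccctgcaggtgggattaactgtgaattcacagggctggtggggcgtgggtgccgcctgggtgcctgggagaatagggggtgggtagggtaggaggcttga
Zfp42: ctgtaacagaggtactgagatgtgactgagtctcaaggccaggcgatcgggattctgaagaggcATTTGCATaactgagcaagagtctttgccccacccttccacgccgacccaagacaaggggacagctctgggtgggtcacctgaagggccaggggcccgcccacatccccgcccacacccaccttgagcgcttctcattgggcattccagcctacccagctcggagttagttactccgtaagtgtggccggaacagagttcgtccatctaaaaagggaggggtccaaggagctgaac
The pair of forkhead matches of Cer1 began 99 and 85 bases before the start site, and the pair of AGTTCA matches of Cyp26a1, both read as TGAACT on this strand, began 32 and 21 bases before it. The single matches began 141 bases before the start site in Foxa1, 67 in Nanog and 186 in Zfp42. Nanog has 2 listed promoters, of which the first was used. These promoters are shown because they hold a match, which most promoters of the genes with the largest ratios do not. Of the 30 largest ratios upwards 24 have a promoter in the table, and 6 of these hold any of the 6 sequences searched, against 5 of 23 downwards. The share of all promoters that hold any of them was not counted, so neither number can be called high or low. The promoter of the marker gene Krt18 holds none, and that of Krt8 only the Gata sequence AGATAA. A match is a description of letters and not of binding.

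The same letters were counted in the promoters of all called genes, as a description with no test. RefSeq promoters were found for 706 of the 889 genes higher in endoderm, 571 of the 693 lower and 14453 of all 18194. TGTTTGC, searched on both strands like the other motifs, was in 4.82% of the promoters of higher genes, 2.98% of those of lower genes and 4.1% of all, and TGTTTAC in 1.84%, 3.68% and 2.82%. The Gata sequence AGATAA was in 5.24%, 4.9% and 8.13%, and ACAATG in 6.66%, 6.83% and 9.27%. AGTTCA was in 6.8%, 8.58% and 11%. The octamer ATGCAAAT stood highest above the share of all promoters, and only for the lower genes: it was in 1.27% of the promoters of higher genes and in 2.98% of those of lower genes, against 1.49% of all. The promoters of higher genes held a median of 22 CpG dinucleotides, those of lower genes 19 and all promoters 17.

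The endoderm array carried the 4 genes by which its label was checked. Sox17, an HMG-box factor needed to form endoderm, was at 2942 in endoderm and 70.7 in ES cells (41.6-fold higher). Cxcr4, the chemokine receptor used to isolate definitive endoderm, had 1711 in endoderm and 7 in ES cells (at least 34.2-fold higher). Cer1, a secreted antagonist of Nodal, BMP and Wnt ligands, had 1083 in endoderm and 6.2 in ES cells (at least 21.7-fold higher). Krt18, an epithelial keratin, had 4222 in endoderm and 94.4 in ES cells (44.7-fold higher). All 4 were thus far above background in endoderm, with 2 of them under background in ES cells. The sources used here do not say whether cells were sorted on Cxcr4, so its level may not be an independent check. Sox17 and Cer1 have a second probe set each, with 1138 and 1614 in endoderm against 32.8 and 0.3 in ES cells. Fewer cells of a type and less RNA per cell cannot be told apart in such bulk samples. Of 41 measured definitive endoderm genes, 30 were higher in endoderm, 1 was lower and 10 were neither, with a median log2 ratio of 2.88 against 0.00 over all genes.

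**Figure D1:**
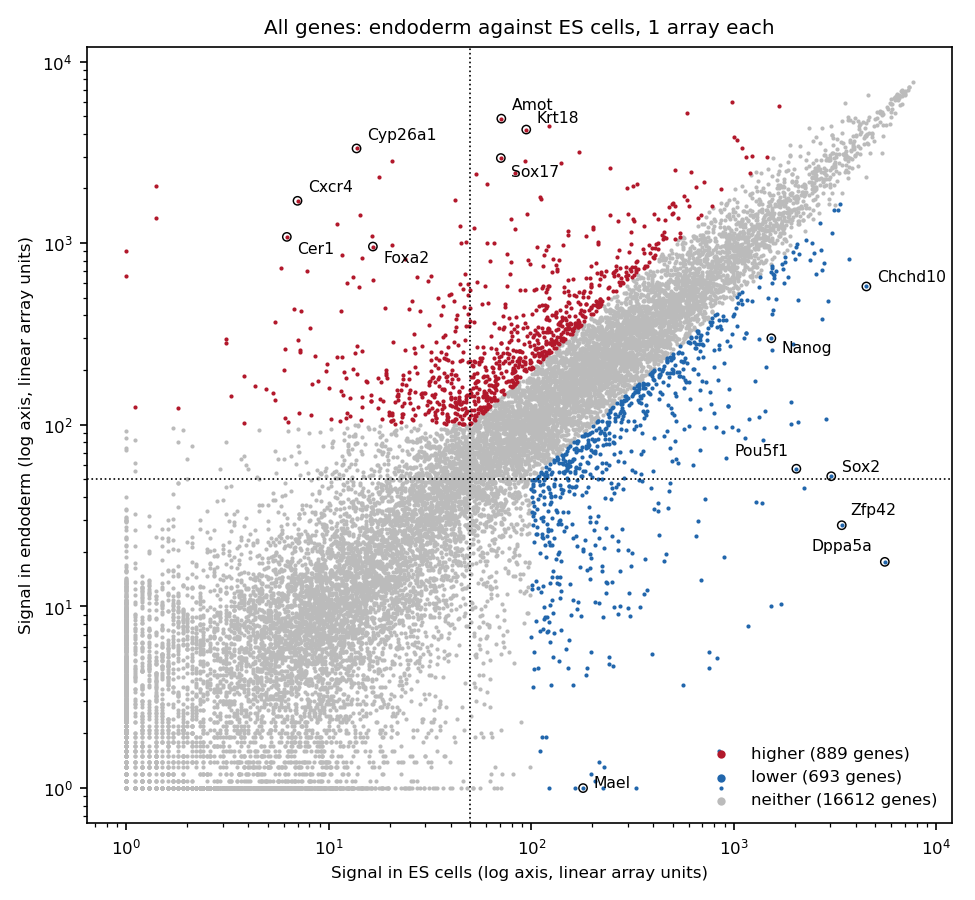
Signal of each of 18194 genes in endoderm (vertical, log axis) against ES cells (horizontal, log axis), 1 point a gene, with signals under 1 drawn at 1 and dotted lines at the background of 50. The 889 higher genes are red, the 693 lower genes blue and the others grey; Amot and Cyp26a1 stand at the upper edge and Dppa5a and Zfp42 at the lower right.

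Of the transcription factors of the definitive endoderm list, 15 of the 17 measured were higher in endoderm. Foxa2, a pioneer factor that opens endodermal enhancers, had 958 in endoderm and 16.5 in ES cells. Its relatives Foxa1 and Foxa3 had 828 and 174 in endoderm, against 14.6 and 8.8 in ES cells, so that each of the 3 Foxa genes was under background in ES cells and above it in endoderm. Gata6, a zinc finger factor of early endoderm, was 16.5-fold higher, at 999.7 in endoderm and 60.6 in ES cells, and Gata4 had 248 and 26.5. Hhex, a homeobox factor of anterior endoderm and later of liver, had 792 in endoderm and 79.7 in ES cells. Otx2, the anterior homeobox factor, was 45-fold higher, at 2406 and 53.5. Of factors known from the primitive streak, Lhx1 had 2068 in endoderm and 1.4 in ES cells, Eomes 1246 and 44.6, Mixl1 368 and 5.4, and Gsc 261 and 6.1. Of 14 measured streak factors 7 were higher, none was lower and 6 were under background in both samples. In the whole streak list 10 of 22 genes were higher and 2 lower. The streak and definitive endoderm lists share factors, so the streak counts are not separate from the 15 of 17 above. Some factors known from the streak and factors of definitive endoderm were above background in the same RNA. Prdm1, a repressor of the same lineage, had 467 and 60.9. Of the 2 list factors that were not called, Hnf4a, a factor of later gut and liver, was at 86.8 in endoderm and 13.4 in ES cells. Another Hnf4a probe set passed the limit, at 133 and 17, while a further one at 78 and 7 did not. Zfp281 was at 437 and 651.

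Of 13 surface and cytoskeletal genes of the definitive endoderm list, 9 were higher. Krt8, the partner of Krt18 in the simple epithelial filament, had 4400.2 in endoderm and 123 in ES cells, and its 2 other probe sets gave 3421 and 4064 in endoderm against 87.1 and 55.3 in ES cells. Krt19 and Krt7, further keratins of simple epithelia, were at 451 and 124 in endoderm, against 36.8 and 17.5 in ES cells. These were the 4 called of 14 measured keratins, and 2 were called once probe sets with identifiers ending in _a_at, _s_at or _x_at were left out. Cldn6, a tight junction claudin, had 1789 in endoderm and 111 in ES cells. Kit, a receptor tyrosine kinase also used to isolate endoderm, had 741 and 315, a smaller step of 2.35-fold. The epithelial adhesion genes Cdh1 and Epcam, bright in both states, were at 2204 and 1407 in endoderm and at 1321 and 921 in ES cells, under the 2-fold limit. Of 11 genes listed as secreted products 6 were higher, namely Cer1, Trh, Dkk1, Frzb, Sfrp5 and Cyp26a1, an intracellular enzyme that was listed with them. Trh, the precursor of thyrotropin-releasing hormone, had 3176 in endoderm and 173 in ES cells. The 1 member that went the other way was Apela, a peptide ligand of the apelin receptor, at 193 in endoderm and 501 in ES cells (2.6-fold lower). Its receptor gene Aplnr was at 901 and 0.2, at least 18-fold higher, whereas its second probe set gave 90 in endoderm and 6.8 in ES cells, short of the limit.

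Genes of differentiated gut, liver and pancreas were mostly under background in both samples. Of 33 measured, 29 were under background in endoderm and in ES cells, 1 was higher and 1 lower. Pdx1, the pancreatic factor whose promoter drives the reporter of this line, was at 0.6 in endoderm and 9.2 in ES cells, and Alb, the serum albumin of liver, at 9.3 and 8.5. Rbp4, a retinol carrier, was higher, at 121 in endoderm and 34.4 in ES cells, and Apoa2, an apolipoprotein, was lower, at 21.8 and 124. Hox genes, which pattern the posterior body, were equally low: 32 of 33 were under background in both, and Hoxa9 was at 54.2 in endoderm and 9.1 in ES cells.

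Extraembryonic endoderm genes did not move as a group. Of 39 measured genes of visceral and parietal endoderm, 7 were higher, 7 lower and 25 neither. The defining serum protein genes Afp and Ttr were at 3.6 and 7.6 in endoderm and at 0.2 and 0.6 in ES cells, all under background, as was Sox7, a factor of extraembryonic endoderm, at 8.3 and 22.2. The endocytic receptor genes of visceral endoderm were lower: Amn had 10.2 in endoderm and 123 in ES cells, Cubn 12 and 111, Lrp2 7.3 and 111, and their adaptor Dab2 45.9 and 165. Other members were among the largest differences upwards. Pga5, a pepsinogen, had 2828 in endoderm and 20.4 in ES cells (at least 56.6-fold higher). Spink1, a trypsin inhibitor, had 2831 and 92.8 (30.5-fold higher). On the parietal side the basement membrane chains Col4a1 and Lamb1 were higher, at 712 and 1601 in endoderm against 263 and 601 in ES cells, and Lama1 was lower, at 18.5 and 198.

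**Figure D2:**
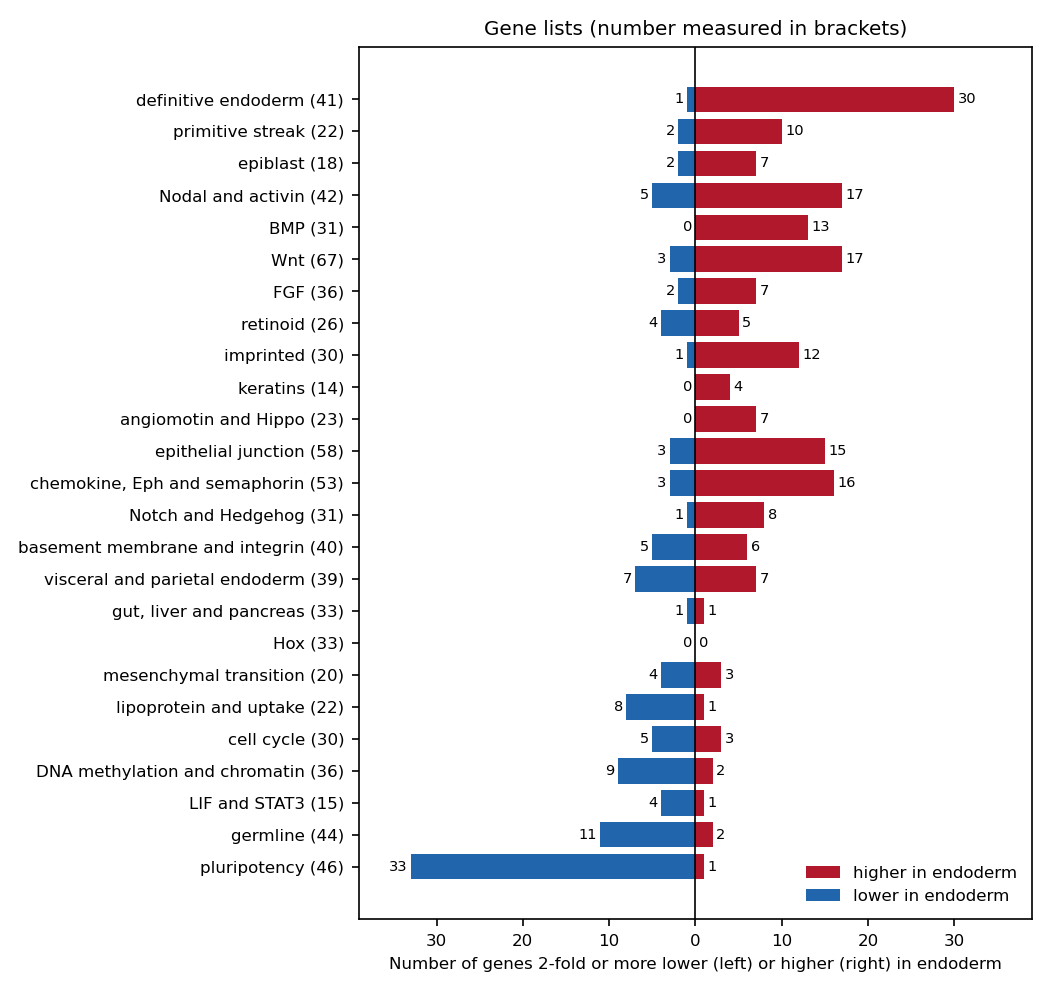
Number of genes of each list that were 2-fold or more higher (red, right) or lower (blue, left) in endoderm than in ES cells, with the number measured in brackets. The definitive endoderm list has 30 of 41 higher, the pluripotency list 33 of 46 lower, and the Hox list none in either direction.

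Nodal signalling genes were higher mainly at the level of receptors and inhibitors. Of 42 measured, 17 were higher in endoderm and 5 lower. Among 10 receptors and coreceptors 6 were higher and 1 lower. The EGF-CFC coreceptors of Nodal differed in opposite directions: Cfc1 (Cryptic) had 602 in endoderm and 12.3 in ES cells (at least 12-fold higher), and Tdgf1 (Cripto) had 774 and 2788 (3.6-fold lower). Tgfbr1, the type I TGF-β receptor, had 647 and 187, and the activin receptors Acvr2a and Acvr2b were at 197 and 232 in endoderm against 75.1 and 114 in ES cells. The Nodal ligand gene itself was at 513 in endoderm and 306 in ES cells and was not called. Tgfb1 and Tgfb2, other ligands of the family, were under background in ES cells and at 236 and 169 in endoderm, and Gdf3 and Inhbb were lower, at 34.2 and 6.5 in endoderm against 405 and 153 in ES cells. Of 11 inhibitors, 7 were higher. The feedback antagonist Lefty1 had 2047 in endoderm and 649 in ES cells, and Lefty2 had 324 and 126. Of 13 effectors only Foxh1, the DNA-binding partner of the Nodal Smads, and Smad3 were higher, at 333 and 246 in endoderm against 132 and 113 in ES cells; Smad2 was at 247 and 246. After quantile normalization 12 genes of this list were higher and 6 lower, so the margin of several is narrow.

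The BMP list had 13 of 31 genes higher and none lower. Bmp2, a ligand, had 436 in endoderm and 6.7 in ES cells (at least 8.72-fold higher), and was the 1 called of 7 ligands. Smad1, a transducer of BMP receptors, was 6.78-fold higher, at 2011 and 297. The Id genes, which are induced by BMP and encode inhibitors of basic helix-loop-helix factors, were bright: Id1 had 949 in endoderm and 107 in ES cells, Id3 676 and 47, and Id2 221 and 93.2. Id4 was at 28.5 and 85.2 and was not called. Ligand, transducer and targets were thus higher together with 5 of the 10 measured inhibitors. Among these Smad6, an inhibitory Smad, had 227 in endoderm and 45.6 in ES cells, and Bambi, a pseudoreceptor, had 222 and 55.3.

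Wnt genes differed by role. Of 19 measured ligands 18 were under background in both samples, and Wnt11 was at 115 in endoderm and 23.3 in ES cells. Of 18 receptors and coreceptors 7 were higher and none lower. Fzd5, a frizzled receptor, had 2054 in endoderm and 317 in ES cells (6.47-fold higher), and Fzd8 had 573 and 14.1 (at least 11.5-fold higher). Fzd2, Fzd6 and Fzd3 were also called, making 5 of the 10 frizzled genes, while Fzd7 was at 1042 and 529. Of 12 secreted inhibitors 5 were higher and 1 lower. Dkk1, which blocks the Lrp5 and Lrp6 coreceptors, had 649.7 in endoderm and 13.2 in ES cells (at least 13-fold higher). Sfrp1, a frizzled-related decoy, had 1198 and 202, and Frzb had 425 and 7.3. Sfrp2 ran against its relatives, at 44.5 in endoderm and 283 in ES cells (at least 5.67-fold lower). Of 18 effectors and targets 4 were higher, 2 lower and 12 neither. Among those called, Tcf7l2 was higher, at 354 and 31.4, Sp5 at 144 and 3.3, and Ccnd1 lower, at 104 and 259.5. Ctnnb1, which encodes β-catenin, was at 4778 in endoderm and 3757 in ES cells. Planar polarity genes, which act beside frizzled receptors in orienting cells, were higher for 6 of 9, among them Vangl2 at 218 and 72.6 and Prickle1 at 169.7 and 40.1.

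FGF ligands differed in both directions. Fgf5, a marker of the primed epiblast, had 1376 in endoderm and 1.4 in ES cells (at least 27.5-fold higher). Fgf8, a ligand of the primitive streak, had 658 and 0.4 (at least 13.2-fold higher). Fgf4, the ligand that ES cells make, had 14.2 in endoderm and 196 in ES cells (at least 3.91-fold lower). Fgf4 probe sets that were brighter in ES cells gave 0.4 and 6.4 in endoderm against 611 and 606 in ES cells. Fgf5, Fgf8 and Fgf4 were the 3 called of 14 measured ligands. Flrt3, a membrane protein that binds FGF receptors, had 648 and 27.2. Feedback genes were split, with Spry1 at 343 in endoderm and 95.4 in ES cells, and Spry2 and Dusp6 not called, at 336 and 400.2 in endoderm and 531 and 478 in ES cells. Etv5, an ETS factor downstream of FGF receptors, was 7.37-fold lower, at 127 and 936, whereas Egr1 was 7.34-fold higher, at 1109 and 151. Egr1 is also a gene of handling and dissociation, and Jun and Fos of that list were higher too, at 1012 and 419 in endoderm against 47.8 and 133 in ES cells, while Ier3 and Hspa1b were lower, at 71.5 and 40.5 against 312 and 124. Of the 23 measured stress genes 4 were higher and 5 lower, and their part in the Egr1 value was not tested.

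**Figure D3:**
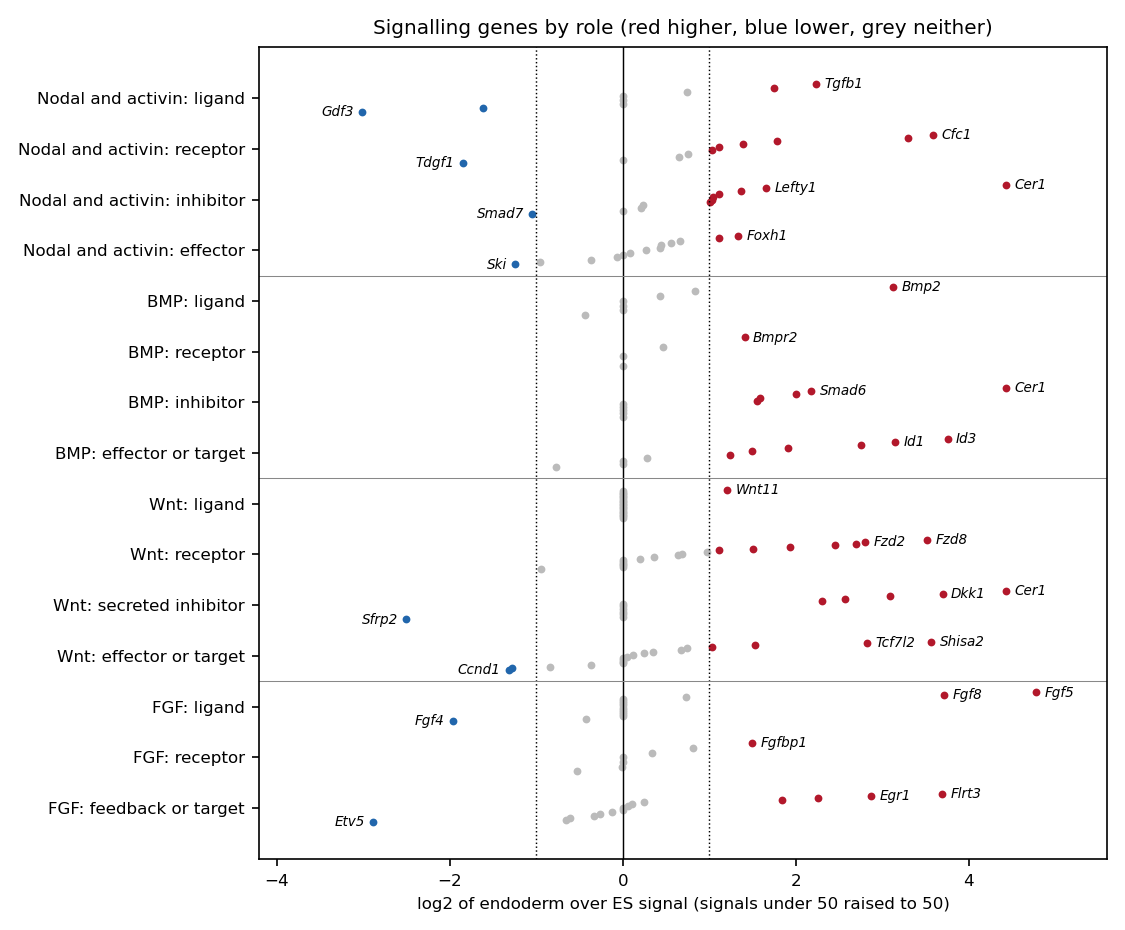
Log2 ratio of endoderm over ES signal for each measured gene of 4 pathways, grouped by role, 1 point a gene, with dotted lines at the 2-fold limits. Red points are higher in endoderm, blue lower and grey neither; Wnt ligands lie at 0 apart from Wnt11, while Wnt receptors and secreted inhibitors spread to the right.

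Retinoid genes moved in both directions. Cyp26a1, the enzyme that breaks down retinoic acid, had 3322 in endoderm and 13.7 in ES cells (at least 66.5-fold higher). Rarb, a retinoic acid receptor and a target of the pathway, had 138 and 5.4, and Rarg, another receptor, had 68.8 and 256 (3.73-fold lower). Both cellular retinoic acid binding proteins were lower, Crabp1 at 31 in endoderm and 114 in ES cells and Crabp2 at 11.1 and 138. Stra8, a retinoic acid target of germ cells, was also lower, at 11.7 and 359.7. In all, 5 of 26 measured genes were higher and 4 lower.

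Pluripotency genes held many of the largest ratios downwards. Of 46 measured genes 33 were lower in endoderm, 1 was higher and 12 were neither, with a median log2 ratio of −1.95. Pou5f1 had 57.3 in endoderm and 2038 in ES cells (35.6-fold lower). Sox2 had 52.1 and 3029.7 (58.2-fold lower). Nanog was lower by a smaller step, at 299.5 in endoderm and 1533 in ES cells (5.12-fold lower). Of 22 naive factors 18 were lower, against 15 of the 24 core genes. Zfp42 (Rex1) had 28 in endoderm and 3415 in ES cells (at least 68.3-fold lower). Klf4 had 18.6 and 894, Klf2 14 and 689, and Esrrb 23.3 and 185. Other Esrrb probe sets gave 1.9 and 10.7 in endoderm against 603 and 217 in ES cells. Dppa5a, a gene of the ES cell and early germ line, had the largest ratio downwards once signals under 50 were raised to 50, at 17.6 in endoderm and 5574 in ES cells (at least 111-fold lower). Its relatives Dppa2 and Dppa4 were at 7.8 and 37.5 in endoderm against 1175 and 1289 in ES cells.

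The 12 pluripotency genes that were not called included some of the brightest. Sall4, a zinc finger factor shared by ES cells and early lineages, was at 2947 in endoderm and 1565 in ES cells, and Lin28a, an RNA-binding protein that blocks let-7 maturation, at 1542 and 898. Eras, a Ras-like GTPase first described in ES cells, was the 1 that was higher, at 1611 in endoderm and 776 in ES cells (2.08-fold higher). With arrays scaled to the same median Eras was not called, and 0 genes of the list were higher. Genes of the epiblast, the stage between naive ES cells and the streak, were mixed: 7 of 18 were higher and 2 lower. Sox4 and Sox11, factors of progenitor cells, were among the 7, at 3831 and 449 in endoderm against 1007 and 119.8 in ES cells, and Pou3f1 was lower, at 33.9 and 133.

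The pathway of LIF, the cytokine that sustains ES cells, was lower at its targets. Socs3, a feedback target of STAT3, had 108 in endoderm and 1185 in ES cells (11-fold lower), and Pim1 had 86.4 and 450. The receptor chain gene Il6st was lower, at 72.6 and 171, while Lifr was at 436 and 278 and was not called. Of 15 measured genes 4 were lower and 1, Jak2, was higher, at 122 and 36.4. Germline genes, many of which are kept silent in somatic cells by promoter methylation, were lower for 11 of 44, and for 23 with a background of 20. Mael and Ddx4, of the germ cell RNA silencing machinery, were at 0.3 and 7.3 in endoderm against 180.1 and 121 in ES cells, and Sycp3, of the meiotic chromosome axis, was at 4.8 and 242. The 2 that were higher, Prdm1 and Kit, are also in the endoderm list.

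Other genes among the 30 largest ratios downwards had varied roles. Fabp3, a fatty acid binding protein, had 44.8 in endoderm and 2227 in ES cells (at least 44.5-fold lower), but its second probe set was under background in both. Hspb1, a small heat shock protein, had 108 and 2866 (26.5-fold lower). Epas1, a hypoxia-inducible factor, had 24.4 in endoderm and 652 in ES cells, and Prps1, an enzyme of nucleotide synthesis, 110 and 1329.5. Genes known from germ cells and placenta were also in this group. Morc1, needed for transposon silencing in male germ cells, had 0.5 and 867, Trap1a 10 and 1535, and the X-linked homeobox gene Rhox5 93.4 and 1051. Mymx, which encodes a fusion peptide of muscle cells, had 5.2 in endoderm and 829.5 in ES cells, and Mylpf, a myosin light chain, 29.5 and 663. Of these 30 genes 10 had 2 or more probe sets, for 7 of them every probe set passed the same limit, and for 3 only the chosen one did.

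Regulators of chromatin were lower for 9 of 36 and higher for 2. Dnmt3l, the cofactor of de novo DNA methylation, had 1.6 in endoderm and 848 in ES cells (at least 17-fold lower). Dnmt3b, an enzyme it assists, was at 3480.4 and 1888 with the probe set chosen, under the 2-fold limit. Its other probe set gave 1977 and 452. Dnmt3a was lower, with probe sets at 73 and 75.1 in endoderm against 677 and 521 in ES cells, and its dimmer probe sets were not called. Tet1, which oxidises methylcytosine, had 208 in endoderm and 1444 in ES cells, and Tet2 had 58.6 and 210.1. Dnmt1, the maintenance enzyme, was at 459 and 710.2. Among Polycomb genes, Eed and Suz12 of the core of repressive complex 2 were lower, at 725 and 506 in endoderm against 1743 and 1035 in ES cells, and their catalytic partner Ezh2 was at 1419.8 and 1537. Phc1, of repressive complex 1, was at 258 and 1545 (5.99-fold lower).

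Imprinted genes were higher for 12 of 30 and lower for 1. Peg3, a paternally expressed zinc finger gene, had 2596 in endoderm and 244 in ES cells (10.6-fold higher). Igf2, a fetal growth factor, had 583 and 121, with a second probe set under background in both. Grb10, an adaptor that restrains insulin signalling, had 3707 and 1042, and Mest had 2163 and 717. Phlda2, a maternally expressed growth restrictor, was the 1 that was lower, at 117 in endoderm and 799 in ES cells. The 12 included the paternally expressed Peg3, Mest, Sgce and Ndn and the maternally expressed Ascl2 and Rian.

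Genes of epithelial junctions were mostly higher where they differed. Of 58 measured junction genes 15 were higher and 3 lower. Dsp, which links desmosomes to keratin, had 1367 in endoderm and 79.8 in ES cells (17.1-fold higher). Cdh2 (N-cadherin) had 1205 and 52.2 (23.1-fold higher) beside a Cdh1 signal that was not lower. Esrp1, a splicing regulator of epithelia, had 974 and 144. Tight junction genes Marveld2 and Ocln were at 259 and 162 in endoderm against 23.7 and 53.4 in ES cells. Factors of the epithelial to mesenchymal transition were not higher: 9 of 10 were under background in both, and Zeb1 was lower, at 55.1 in endoderm and 155 in ES cells. Among 40 basement membrane and integrin genes 6 were higher and 5 lower, with Lama5 at 428 and 116 and the nidogen gene Nid1 at 139 and 429.

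All 3 angiomotin genes were higher. They act in the Hippo pathway, which restrains growth through the coactivators Yap1 and Wwtr1 (Taz). Amot, a scaffold of tight junctions that holds Yap1 in the cytoplasm, had 4848 in endoderm and 71.1 in ES cells (68.2-fold higher), the largest ratio upwards once signals under 50 were raised to 50. Its 2 other probe sets gave 597 and 2305 in endoderm against 23.8 and 24.3 in ES cells. Amotl1 and Amotl2 were higher by smaller steps, at 311 and 255 in endoderm against 109 and 116 in ES cells. Yap1 was at 1017 and 698 and Wwtr1 at 321 and 336, and neither was called. Of 5 targets, Ccn1 was higher, at 798 in endoderm and 62.4 in ES cells, and Ccn2 was at 81.5 and 122. In all 7 of 23 measured genes were higher and none lower.

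Guidance molecules and their receptors were higher for 16 of 53 and lower for 3. Ackr3, the second receptor of the Cxcr4 ligand Cxcl12, had 559 in endoderm and 45.9 in ES cells, and Cxcl12 itself was at 55.9 and 93.1. Sema6d, a semaphorin, had 983 and 20.5, and Nrp1, a semaphorin coreceptor, had 620 and 30.9. The receptor gene Robo1 and the ligand gene Slit2 were higher together, at 597 and 264 in endoderm against 48.9 and 63.4 in ES cells. Of the 5 type A ephrins 4 were called, led by Efna5 at 252 and 35.7, while Efnb2 of the type B ephrins was lower, at 50.4 and 115. In the Notch and Hedgehog list 8 of 31 were higher and 1 lower. Jag1, a Notch ligand, had 749.7 in endoderm and 114 in ES cells, Hes1, a Notch target, 564 and 113, and the Hedgehog effector Gli2 44.8 and 388 (at least 7.77-fold lower). Glypicans, heparan sulphate proteins that hold growth factors at the surface, were higher for 4 of 6: Gpc3 had 2118 in endoderm and 60.5 in ES cells, and Gpc4 1753 and 112. The syndecans, the other family of surface heparan sulphate proteins, had 0 of 4 called.

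Further genes among the 30 largest ratios upwards lay outside these lists. Podxl, a sialomucin of apical membranes, had 2439 in endoderm and 83.3 in ES cells (29.3-fold higher). Car4, a membrane-bound carbonic anhydrase, had 2772 and 140.3 (19.8-fold higher), and Car2, a cytosolic one that is not among the 30, 3355 and 1098. Cd55, which protects cells from complement, had 1090.5 in endoderm and 16.3 in ES cells. Of these products, Podxl, Car4 and Cd55 are found at the cell surface. Pkdcc, a secreted protein kinase, had 1737 and 41.9, and Prss12, a serine protease, 857 and 11.6. Tox3, an HMG-box factor, had 999 in endoderm and 44.8 in ES cells. Of the 30 genes 18 had 2 or more probe sets, and for 16 of these every probe set passed the same limit.

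Transcription factor families differed member by member. Of 16 measured Klf genes 5 were lower and 1, Klf6, was higher, at 531 in endoderm and 179 in ES cells. Klf5 and Klf9 were lower, at 208 and 495 in endoderm against 797 and 1609 in ES cells. Of 19 Sox genes Sox17, Sox4, Sox11 and Sox3 were higher and Sox2 and Sox1 lower, with Sox3 at 173 and 33.5. Of 35 Fox genes 7 were higher, the 3 Foxa genes and Foxh1 among them, and Foxp1 was lower, at 83.6 and 214. Of 6 Gata genes Gata6, Gata4 and Gata1 were higher and none lower.

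Of 4 metallothioneins, which bind zinc and copper, 2 were lower and none higher, with Mt3 and Mt4 under background in both samples. Mt1 had 119 in endoderm and 1429.9 in ES cells, and Mt2 133 and 1926. The Mt1 call rests on a probe set marked as of shared sequence, and its other probe set was under background in both. Slc39a8, a zinc importer, was higher, at 1281 and 11 (at least 25.6-fold higher). Genes of glutathione synthesis and peroxide removal were lower for 10 of 28 and higher for 1, with a median log2 ratio of −0.57. Sod2, the mitochondrial superoxide dismutase, had 427 in endoderm and 1570.1 in ES cells, Gpx4, which reduces lipid peroxides, 880.4 and 2488, and Gclm, a subunit of the first enzyme of glutathione synthesis, 93 and 467. Of 20 glutathione transferases 5 were lower and none higher. Lactate carriers led the glycolysis list, with Slc16a1 at 5665 in endoderm and 1673 in ES cells, while most glycolytic enzymes were not called. Of the phosphofructokinase isoforms Pfkl was higher, at 1432 in endoderm and 688 in ES cells, and Pfkp and Pfkm were lower, at 219 and 159.9 in endoderm against 584 and 322 in ES cells. Cholesterol synthesis genes, all above background in endoderm or ES cells, were higher for 3 of 19 (15.8%). Of all genes above background in either sample 9.87% were higher, so this count stands little above the general share. The median log2 ratio of the 19 was 0.60, against 0.00 over all genes above background in either sample. Lipoprotein and uptake genes were lower for 8 of 22, or 5 without probe sets ending in _a_at, _s_at or _x_at. The 1 that was higher was Vldlr, a lipoprotein receptor, at 922 and 118 (7.81-fold higher).

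Genes of DNA replication leaned down without most of them reaching 2-fold. Of 40 genes of the MCM, ORC and RPA type 8 were lower and none higher, with a median log2 ratio of −0.46. Rpa1, of the single-strand binding complex, had 1141 in endoderm and 3058 in ES cells, and Cdt1, a licensing factor, 1518 and 3281. Among cell cycle genes 3 of 30 were higher (10%) and 5 lower (16.7%). Of these 30 genes, 25 were above background in endoderm or ES cells, and of all such genes 9.87% were higher and 7.69% lower. Ccnd3, a D-type cyclin, had 177 in endoderm and 839 in ES cells, and the Myc genes differed in both directions, with Mycn lower at 349.8 and 1034, and Mycl and Myc higher at 139 and 207 in endoderm against 17.9 and 101 in ES cells. After quantile normalization 1 cell cycle gene was higher and 5 were lower. Mki67, a proliferation marker, was at 1291 and 853. In 4 housekeeping families no gene was higher. Lower were 2 of 45 cytosolic ribosomal protein genes (4.44%), 2 of 76 mitochondrial ones (2.63%), 3 of 49 proteasome genes (6.12%) and 0 of 34 complex I subunits. Of all genes 3.81% were lower, and 7.69% of those above background in endoderm or ES cells. The 2 lower cytosolic ribosomal protein genes are variants, Rpl39l at 4.6 in endoderm and 755 in ES cells, and Rps4l at 481 and 2916.

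Set against the other arrays, some of the genes with large ratios were dark elsewhere and others were bright in several arrays. Of the 889 higher genes 46 were under background in each of the other 5 arrays, as were 90 of the 693 lower genes. The same count was not made over all genes, so neither number can be called high or low. Cer1 was at most 4 in those arrays, and Otx2 at most 15.9. Trh was at most 38.9. Krt18 was also bright in paraxial mesoderm and liver, at 2451 and 2092, and Amot in paraxial mesoderm and skeletal muscle, at 2907 and 929. Cxcr4 had 781 in ectoderm, Cyp26a1 861 in liver, and Foxa3 383 in liver. Of the genes lower in endoderm, Sox2 had 2369 in ectoderm and Mt1 13314 in liver, whereas Pou5f1 was at most 25.7 and Dppa5a at most 26.8 outside the ES cells and endoderm. Of the higher genes 79.4% were above background in ectoderm, 84.7% in paraxial mesoderm and 59.1% in liver, against 87.8%, 88.8% and 72.4% of all genes above background in endoderm or ES cells.

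**Figure D4:**
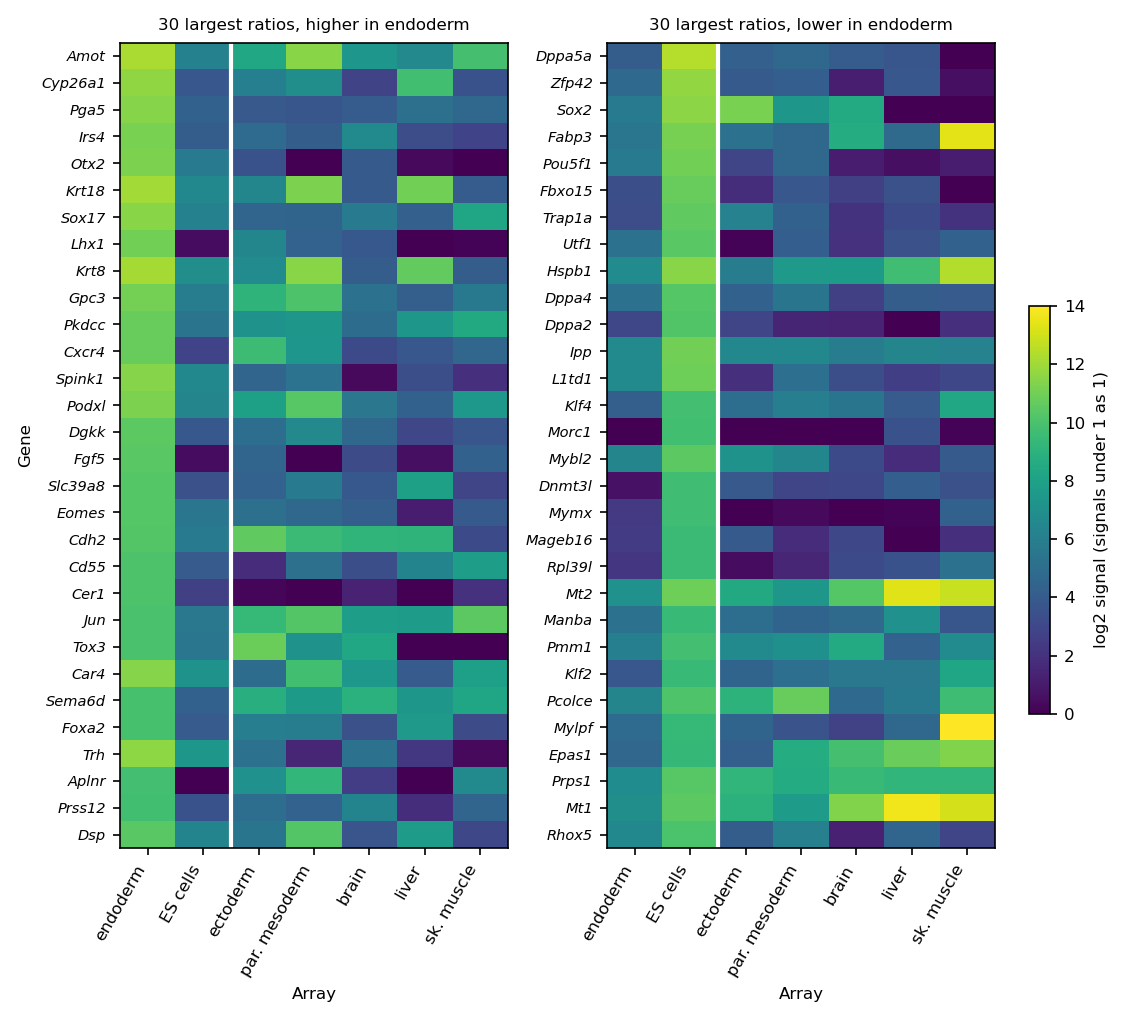
Log2 signal (signals under 1 drawn as 1) of the 30 genes with the largest ratios upwards (left) and downwards (right) between endoderm and ES cells, over all 7 arrays. Cer1, Otx2 and Pga5 are bright in endoderm alone, Krt8, Krt18 and Amot also in paraxial mesoderm, and Mt1 and Mt2 of the lower genes are brightest in liver and skeletal muscle.

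Markers of other cells were mostly at or near background. Of 17 measured neural genes 14 were under background in both samples, and Sox1 and Tubb3 were lower, at 1.9 and 21.7 in endoderm against 118 and 116 in ES cells. Of 22 mesoderm genes 17 were under background in both, none was higher and 1 was lower. The 17 fibroblast and feeder genes summed to 1024 in endoderm and 1565 in ES cells, with 2 higher and 4 lower. The collagen gene Col1a1 was at 15.7 and 57.7, and Col1a2 at 115.3 and 179.5. Dcn and Col6a1 were higher, at 148 and 153.5 in endoderm against 21.9 and 58.7 in ES cells. Of 12 blood and endothelial genes 1 was higher, Gata1, at 112 in endoderm and 12.7 in ES cells. Of 10 trophectoderm genes Ascl2 and Krt7 were higher and Tfap2c was lower, at 69.4 and 348. The 9 mesonephros genes had 1 higher, Gata4, which the endoderm list holds as well. The part of such cells in any value above was not tested.

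The X chromosome had the highest share of higher genes. Of the 303 genes of the X chromosome above background in endoderm or ES cells, 20.5% were higher and 10.6% lower, against 9.87% and 7.69% of the 9008 such genes on all chromosomes. The next highest share of higher genes was 12.9%, on chromosome 1. Amot, Irs4, Dgkk, Gpc3 and Gpc4 lie on the X chromosome, as do Eras and Gata1. Irs4, an adaptor of insulin signalling, had 2320.5 in endoderm and 17.7 in ES cells, and Dgkk, a diacylglycerol kinase, 1430.5 and 14.3. The median log2 ratio of X-linked genes above background was 0.10, a small shift but the highest of any chromosome, with 0.08 on chromosome 1 next. Some neighbouring genes were both called. There were 64 pairs of adjacent measured genes that were both higher, with 120 genes or 13.5% of those placed, and 60 pairs that were both lower, with 113 genes or 16.3%. For comparison, 9.48% of all placed genes, and 9.7% of those above background in endoderm or ES cells, lay next to a higher gene, and 7.42% and 8.48% lay next to a lower one. The pairs included Krt8 and Krt18, Lefty1 and Lefty2, and Gpc3 and Gpc4 among the higher genes, and Gdf3, Dppa3 and Nanog, Dppa2 and Dppa4, and Mt1 and Mt2 among the lower ones.

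**Figure D5:**
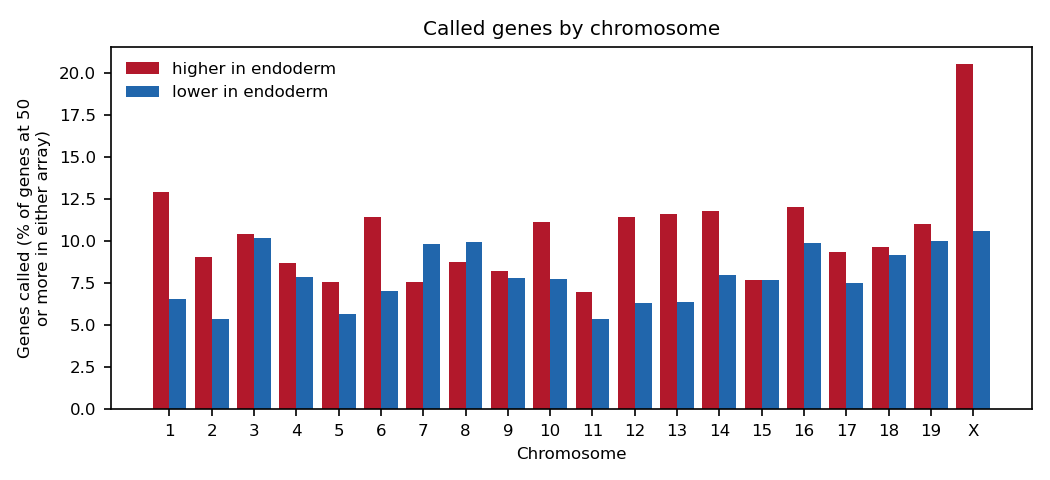
Share of genes higher (red) and lower (blue) in endoderm than in ES cells, as a percentage of the genes of each chromosome with a signal of 50 or more in either sample. The X chromosome has 20.5% higher, above the 12.9% of chromosome 1, which is next.

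The size of the differences was modest for most genes. The median ratio was 2.79 among higher and 2.58 among lower genes, and 508 of the 889 higher and 437 of the 693 lower genes lay between 2- and 3-fold. At 10-fold or more there were 60 higher and 34 lower genes. Just inside the limit Ehbp1 was at 318 in endoderm and 159 in ES cells and Cebpzos at 132 and 264. Just outside it Tecpr1 was at 99.9 and 42.6 and Fbln2 at 49.5 and 99.9. The dimmer signal was under background for 302 of the higher and 248 of the lower genes, whose ratios are lower bounds. The other probe sets of called genes gave a partial check within the same RNA. Of 662 further probe sets of higher genes that were above background in either sample, 349 (52.7%) passed the same limit and 1 passed it in the opposite direction, and of 422 of lower genes 233 (55.2%) passed it and 0 the opposite. The opposite one, named after its values were seen, belongs to Zmynd8, at 65.7 in endoderm and 409.6 in ES cells, against 546 and 252 with the probe set chosen. The ratio of 3′ to 5′ control probe signals, a measure of RNA integrity, was 1.21 in endoderm and 1.37 in ES cells for Actb, and 0.82 and 0.795 for Gapdh.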

How the data were processed

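Total RNA of each sample was hybridized by the authors to a mouse GeneChip array, 1 array per sample. The deposited values are linear intensity values of 45101 probe sets, which the authors scaled globally to an average signal of 100, and without the outer 2% of probe sets on each side the mean was 100.0 on every array. How the probes of a set were summarised was not stated, and the labels and the methods name different RNA kits. Gene names came from the platform annotation: 34958 probe sets have 1 symbol, 932 have several and 9211 have none here, controls included.

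Each of 18194 genes was represented by the probe set of that gene alone whose log2 signals (values under 1 as 1) averaged highest across the 7 arrays. Signals under 50 were raised to 50, the ratio of endoderm over ES signal was taken, and a ratio of 2 or more either way was called. There were 8291 genes at 50 or more in endoderm and 8086 in ES cells. With 1 array a side no p-value exists, and precision is limited by the small number of arrays. The arithmetic of the calls was checked on simulated signals with known ratios, which says nothing of the spread between cultures. The comparison, the 37 gene lists and the alternatives were chosen with earlier results of these data known, and the 33 families (among them glypicans, frizzled receptors, planar polarity, type A ephrins, carbonic anhydrases, metallothioneins, glutathione, replication, ribosomal protein, proteasome and complex I genes) were drawn up after the values were seen, so no list is independent support. Of 1012 list entries 65 have no measured gene. Named are the 4 markers, members of lists, and the 30 largest ratios each way without predicted genes; others are said to be named after their values were seen, or serve as examples of the limits or of neighbours. Alternatives were backgrounds of 20 and 100, a common median for all arrays, quantile normalization, geometric means over probe sets and a 3-fold rule. Others were dropping probe sets with identifiers ending in _a_at, _s_at or _x_at, and choosing the probe set on the endoderm and ES arrays alone. The second-brightest probe set of each gene was added after the data had been seen. Promoters and chromosomes came from RefSeq tables of GRCm38.p6. Python 3.11.15, numpy 2.4.6, pandas 2.3.3 and matplotlib 3.10.9 were used. DNA methylation and histone marks were not analysed here.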

Additional observations from a re-analysis of the deposited data

Results flagged for a closer look

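Signal also differed in probe sets without a gene name, which no comparison above uses. Of 9160 such probe sets, controls left out, 75 were 2-fold or more higher in endoderm and 47 were lower, or 0.819% and 0.513%, and the largest ratio was 17.8 upwards and 24.1 downwards, with signals under 50 raised to 50. Of 932 probe sets that the annotation assigns to several genes, 23 were higher in endoderm and 28 lower.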

How the results depend on the processing

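Counts moved with the limits more than with the scaling. With a background of 100, 568 genes were higher in endoderm and 433 lower, and with the 3-fold rule 381 and 256. With geometric means over the probe sets of each gene 582 were higher and 495 lower. With a background of 20, 1274 were higher and 1035 lower. Quantile normalization gave 805 higher and 743 lower, and scaling to the same median 891 and 823; both put the share of higher genes among those called at 52%, against 56.2%. No gene called one way was called the other way under any of these alternatives or with the second-brightest probe set. Over all alternatives, between 24 and 33 definitive endoderm genes were higher and between 25 and 35 pluripotency genes lower. All 60 genes with the largest ratios were called under every alternative but the following. Without probe sets ending in _a_at, _s_at or _x_at, 50 of the 60 could be measured. Of these, Aplnr (1.8) and Mt1 (under background on both arrays) were not called. With the second-brightest probe set, which 28 of the 60 have, 24 were called, and Aplnr, Fabp3, Utf1 and Mt1 were not. No paired analysis was possible because each group has 1 array.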
